A study of Mus musculus with 9 samples.

Results

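Messenger RNA levels of 10 genes of lipid sensing and handling, of 23234 gene symbols in the deposited tables, were followed in Gr-1+CD11b+ and Gr-1-CD11b+ monocytes sorted from mouse blood. The genes were taken by symbol (Pparg, Cd36, Fabp4, Fabp5, Nr1h3, Abca1, Abcg1, Trem2, Lpl and Apoe), and all 10 were listed in each of the 9 libraries and passed the filter on low values. The group was chosen by FPKM values of the 2 sorted subsets, whose difference was already known, so the subset values of these 10 genes are given below as a description, without p-values. The animals were C57BL/6 mice 8 months of age that all carried Yaa, a Y chromosome with a translocated copy of an X segment holding Tlr7. Gr-1+ monocytes gave 4 libraries and Gr-1- monocytes gave 5. The Gr-1+ libraries were 2 of genotype Fcgr2-/-.Yaa (called null here), 1 of CEBPaCre;Fcgr2 fl/fl.Yaa and 1 of CD19Cre;Fcgr2 fl/fl.Yaa. The Gr-1- libraries were 1 each of null, CEBPaCre;Fcgr2 fl/fl.Yaa, CD11cCre;Fcgr2 fl/fl.Yaa, CD19Cre;Fcgr2 fl/fl.Yaa and Fcgr2 fl/fl.Yaa without a Cre (called floxed). Fcgr2 encodes the inhibitory IgG receptor CD32. The CEBPaCre driver acts in myeloid progenitors and the CD11cCre driver in dendritic cells and part of the monocytes, while CD19Cre and floxed monocytes keep Fcgr2 by label. The labels do not say whether libraries came from separate or pooled animals, so a p-value measures only the spread between libraries.

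PPAR-gamma (Pparg) and LXR-alpha (Nr1h3) are nuclear receptors that bind DNA with RXR and are switched on by fatty acid derivatives and by oxysterols. PPAR-gamma is known to induce fatty acid uptake and transport genes such as Cd36, Fabp4 and Lpl in macrophages and adipocytes. LXR is known to induce the cholesterol exporters Abca1 and Abcg1 and the carrier Apoe. Trem2 is a surface receptor for lipids and lipoproteins that signals through Tyrobp and marks lipid-laden tissue macrophages.

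The sorted populations differed in the RNA of classical and nonclassical monocyte markers. Of 11 tested classical monocyte markers, 10 were higher in Gr-1+ monocytes, and of 12 nonclassical markers 11 were higher in Gr-1- monocytes (limma, with p adjusted by Benjamini-Hochberg over all genes and a threshold of 0.05). The summed FPKM (fragments per kilobase of transcript, scaled to the mapped reads of a library) of the classical list was 5927 to 10571 in Gr-1+ and 737 to 1635 in Gr-1- libraries, the highest Gr-1- sum being that of CD19Cre. Several of the 10 genes are also known from fat and vessel cells, and adipocyte markers summed to 0.0918 to 0.781 FPKM in Gr-1+ libraries, against 0.0821 to 1.18 FPKM in Gr-1- libraries, with Adipoq and Cfd at 0 in every Gr-1- library. Endothelial markers summed to 0.994 to 2.25 FPKM in Gr-1+ libraries, against 3.07 to 6.25 FPKM in Gr-1- libraries. Of 10 members, 2 averaged 1 FPKM or more in Gr-1- and 0 did in Gr-1+. Only 2 were tested, of which Vwf was called toward Gr-1-. Cdh5 and Kdr reached at most 0.035 and 0.225 FPKM in Gr-1- libraries. Platelet markers, whose cells also carry CD36 protein, summed to 13.3 to 43.4 and 12.1 to 45.4 FPKM. Neutrophil markers moved with the Gr-1+ subset (876 to 2696 against 75.0 to 156 FPKM), with 10 of 13 tested members called toward Gr-1+. All 14 members found in the files averaged 1 FPKM or more in Gr-1+, and 6 did in Gr-1-. Mpo reached that average through the CD19Cre Gr-1+ library, at 5.68 FPKM against 0.0869 to 0.321 FPKM in the other Gr-1+ libraries. NK cell markers moved with the Gr-1- subset (1.56 to 4.47 FPKM in Gr-1+, against 24.9 to 481 FPKM in Gr-1- libraries), with 9 of 11 tested members called. The sums of eosinophil and basophil markers were also higher in Gr-1- (10.4 to 29.0 against 44.6 to 142 FPKM). So were those of T cell markers (1.505 to 3.35 against 4.51 to 19.6 FPKM). Of the 9 genes in each of those lists only 2 were tested, and 1 was called toward Gr-1- (Ear1 and Lck). Eosinophil and basophil members averaging 1 FPKM or more numbered 3 in Gr-1+ and 2 in Gr-1-. B cell markers overlapped in sum (10.7 to 72.3 against 47.0 to 158 FPKM), with 4 of 6 tested members called toward Gr-1-. The part of these cell types in the results was not tested. The targeted gene did not follow the labels. Fcgr2b stood at 83.0 to 201 FPKM in the 5 libraries labelled null or CEBPaCre, against 74.9 to 195 FPKM in the 3 labelled CD19Cre or floxed. A gene-level value does not show which exons its reads came from. Read depth is unknown. The steps between low values put the relative depth at 0.702 (null Gr-1+ replicate 1) to 2.66 (CD19Cre Gr-1-) of that of the floxed library. Both CD19Cre libraries stood apart, with 1.99% (Gr-1+) and 2.28% (Gr-1-) of summed FPKM from 84 ribosomal protein genes, against 3.68% to 7.74% in the other 7. Another split crossed the null genotype. Genes at 0 FPKM numbered 5123 to 5693 in null Gr-1+ replicate 2, null Gr-1- and floxed, against 6655 to 10140 in the other libraries. The part of this split in the values was not tested.

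The first question was how the lipid genes differ between the monocyte subsets. The receptor Pparg and its known targets Cd36 and Fabp4, with Nr1h3, were higher in every Gr-1- than in every Gr-1+ library. Trem2 was higher in every Gr-1+ library. The cholesterol exporters Abca1 and Abcg1, the carrier Apoe, the fatty acid binding protein Fabp5 and lipoprotein lipase (Lpl) overlapped between subsets. Thus 5 of the 10 genes showed no overlap, where 16.5% of 10436 tested genes did, and the same 5 passed the limma threshold, where 14.8% of all genes did (8.84% toward Gr-1+ and 5.95% toward Gr-1-). Since this contrast chose the genes, nothing is read from those counts. In sorted bulk RNA, fewer cells of a type and less RNA per cell cannot be told apart.

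**Figure D1:**
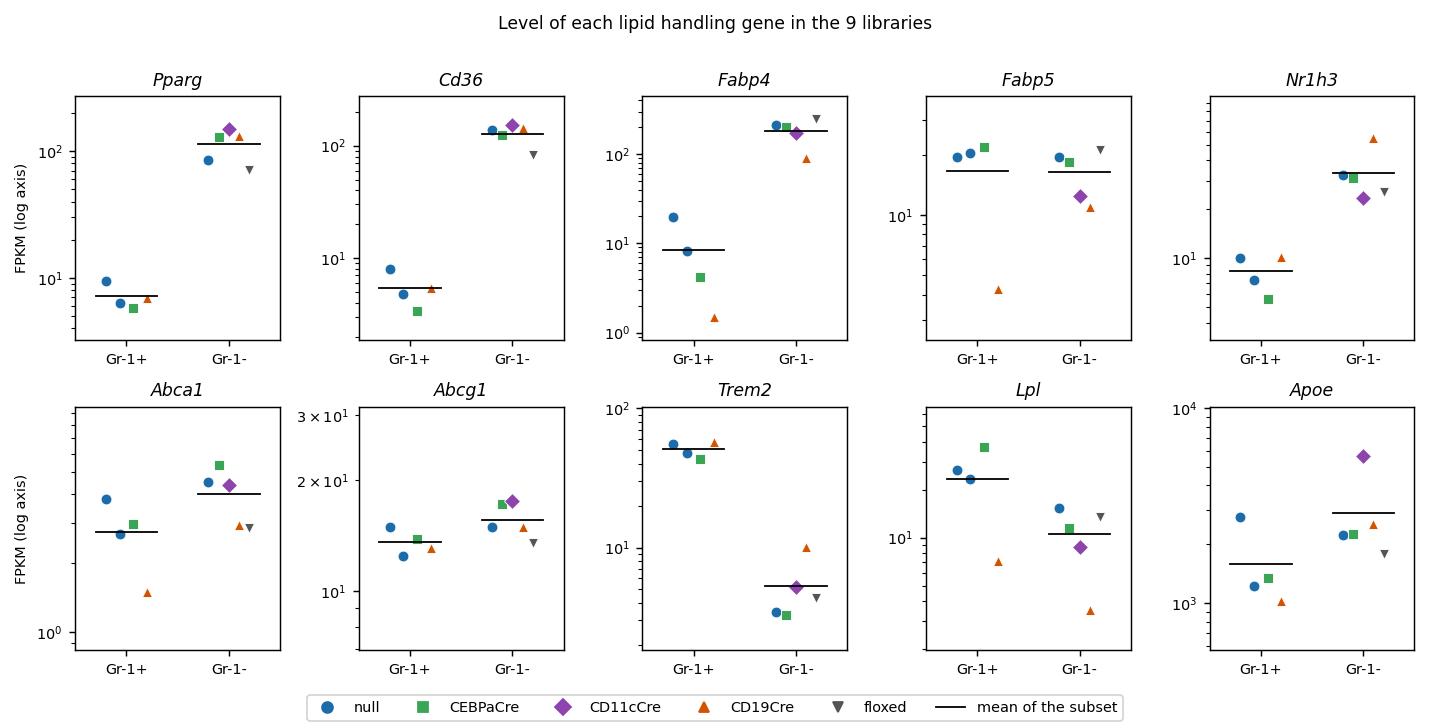
FPKM of each of the 10 genes on a log axis, by sorted subset, with 1 point per library (symbol and colour give the genotype) and a line at the subset mean. Pparg, Cd36, Fabp4 and Nr1h3 lie higher in all 5 Gr-1- libraries, Trem2 lies higher in all 4 Gr-1+ libraries, and the CD19Cre triangles are the lowest points for Fabp4, Fabp5 and Lpl in both subsets.

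Among the nuclear receptors, Pparg stood at 9.42, 6.33, 5.79 and 6.95 FPKM in Gr-1+ libraries (null replicates 1 and 2, CEBPaCre and CD19Cre, the order used throughout for Gr-1+). In Gr-1- libraries it stood at 84.6, 129, 150, 132 and 70.9 FPKM (null, CEBPaCre, CD11cCre, CD19Cre and floxed, the order used throughout for Gr-1-). The lowest Gr-1- library, floxed, was thus far above the highest Gr-1+ library, null replicate 1. The fitted difference, Gr-1+ minus Gr-1- on the log2(FPKM + 1) scale as for all differences below, was -3.78 ± 0.26 (SE), or 13.7-fold higher in Gr-1- monocytes. Within a genotype the Gr-1- library was 8.21-fold and 11.7-fold higher for null, 19.1-fold for CEBPaCre and 16.7-fold for CD19Cre. Nr1h3 (LXR-alpha) stood at 9.98, 7.34, 5.604 and 10.2 FPKM in Gr-1+ libraries, against 32.6, 31.0, 23.3, 55.0 and 25.6 FPKM in Gr-1- libraries, a difference of -1.86 ± 0.27. The subsets did not overlap, and CD19Cre held the highest value in each. Both receptors pair with RXR. Its gene Rxra, singled out here after its values were seen, averaged 10.0 ± 3.95 FPKM in Gr-1+ (SD, n = 4) and 5.98 ± 1.503 FPKM in Gr-1- libraries (n = 5). The sister receptor genes Nr1h2 (LXR-beta) at 59.4 ± 26.3 and 63.1 ± 15.2 FPKM and Ppard at 1.36 ± 0.603 and 0.814 ± 0.33 FPKM, singled out in the same way, also did not pass the test.

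The fatty acid uptake and binding genes Cd36 and Fabp4 had the largest fitted differences of the 10, and Fabp5 and Lpl did not follow them. Cd36, a scavenger receptor that takes up fatty acids and oxidised lipoproteins, stood at 7.96, 4.82, 3.34 and 5.46 FPKM in Gr-1+ libraries, against 137, 124, 153, 143 and 82.1 FPKM in Gr-1- libraries (difference -4.35 ± 0.26). The floxed library was again the lowest of the Gr-1- libraries, as it was for Pparg. Fabp4, which carries fatty acids inside the cell, stood at 19.75, 8.28, 4.19 and 1.48 FPKM in Gr-1+ libraries, against 211, 200.2, 171, 90.2 and 247 FPKM in Gr-1- libraries (difference -4.64 ± 0.53). Within each subset it varied more than Cd36: the Gr-1- excess was 10.2-fold and 22.9-fold for null, 38.8-fold for CEBPaCre and 36.8-fold for CD19Cre. Its paralogue Fabp5 stood at 19.6, 20.4, 21.8 and 4.26 FPKM in Gr-1+ libraries, against 19.6, 18.4, 12.4, 10.9 and 21.3 FPKM in Gr-1- libraries (difference -0.16 ± 0.42). The 3 Gr-1+ libraries other than CD19Cre lay close to the null, CEBPaCre and floxed Gr-1- libraries, and without the CD19Cre Gr-1+ library the difference was 0.35 ± 0.24. Lpl, the secreted enzyme that frees fatty acids from lipoprotein triglycerides, stood at 26.5, 23.3, 37.0 and 7.17 FPKM in Gr-1+ libraries, against 15.4, 11.5, 8.73, 3.52 and 13.5 FPKM in Gr-1- libraries (difference 1.02 ± 0.47). The subsets overlapped only through the CD19Cre Gr-1+ library. Within a genotype Lpl was 1.68-fold and 1.48-fold higher in Gr-1+ for null, 3.05-fold for CEBPaCre and 1.81-fold for CD19Cre. Among these genes of uptake and hydrolysis, Lpl therefore ran in the direction opposite to Cd36 and Fabp4.

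**Figure D2:**
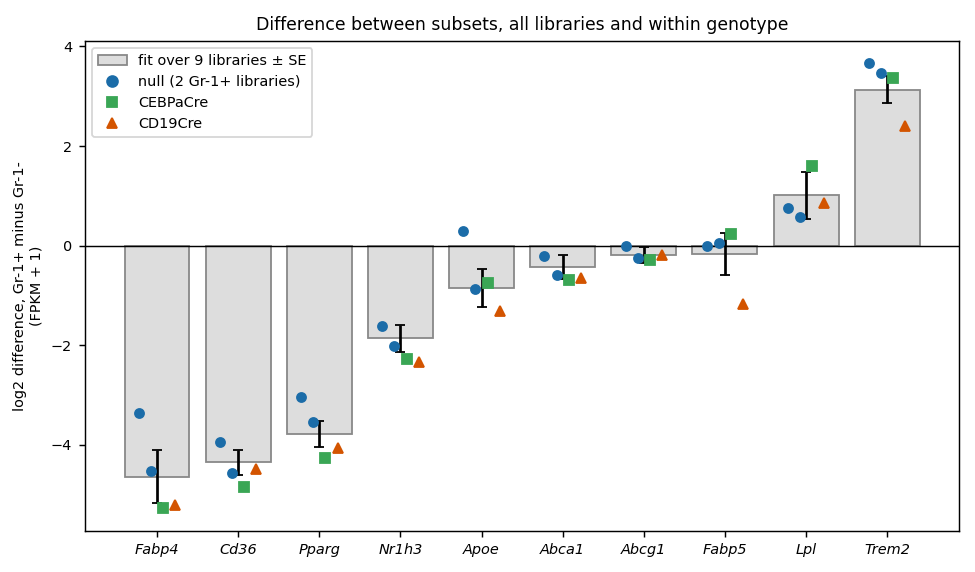
Log2 difference in FPKM + 1, Gr-1+ minus Gr-1-, for each gene. Bars give the fit over 9 libraries with its SE, and points give differences within null (2 Gr-1+ libraries), CEBPaCre and CD19Cre. All within-genotype points lie below 0 for Fabp4, Cd36, Pparg, Nr1h3 and Abca1 and above 0 for Lpl and Trem2. Those of Apoe, Fabp5 and Abcg1 lie on both sides, Abcg1 only through a null point at 0.0019.

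The promoters of Cd36 and Pparg are shown because both genes stood higher in every Gr-1- library. RefSeq promoter entries (GRCm38.p6, not the mm9 build of the files) of 300 bases were found for 6 of the 10 genes. Each was searched on both strands for the closest match to AGGTCA written 2 times in a row with 1 base of any kind between (DR1), the kind of element PPAR-gamma and RXR bind, and with 4 bases between (DR4), the kind LXR and RXR bind. The 2 motifs share their repeat unit, so matches can overlap. The Cd36 entry (chr5:17835847-17836146, minus strand) held a DR1 match with 2 of 12 letters different, starting 63 bases before the annotated start, and 3.86% of all promoters held a match as close. It was the closest match to either motif among the entries of the 6 genes, so its share is that of the best of several searches. The first of 3 Pparg entries (chr6:115360894-115361193, plus strand) held a closest DR1 match with 4 letters different, and 79.8% of all promoters held one as close. Both entries of Nr1h3, which also stood higher in every Gr-1- library, held a closest DR1 match with 4 letters different. Capitals mark the closest DR1 match, read 5′ to 3′ on the strand of the gene.
Cd36 promoter: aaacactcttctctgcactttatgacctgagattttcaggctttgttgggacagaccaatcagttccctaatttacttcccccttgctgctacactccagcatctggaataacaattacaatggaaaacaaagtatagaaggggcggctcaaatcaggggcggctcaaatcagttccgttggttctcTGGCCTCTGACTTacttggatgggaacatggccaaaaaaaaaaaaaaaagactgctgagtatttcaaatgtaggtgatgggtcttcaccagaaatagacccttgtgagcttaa
Pparg promoter: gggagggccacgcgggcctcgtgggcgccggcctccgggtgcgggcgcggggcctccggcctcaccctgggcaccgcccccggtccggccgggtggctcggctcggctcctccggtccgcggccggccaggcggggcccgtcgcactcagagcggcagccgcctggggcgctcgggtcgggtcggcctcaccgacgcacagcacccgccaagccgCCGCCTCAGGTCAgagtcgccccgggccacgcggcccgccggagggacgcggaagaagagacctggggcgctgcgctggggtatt
A match of letters is a description only, and the value per gene does not say from which start the RNA came.

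Cholesterol export and carriage differed less between the subsets. Abca1, which loads cholesterol onto lipid-poor apolipoproteins, was low throughout, at 3.81, 2.69, 2.97 and 1.502 FPKM in Gr-1+ libraries, against 4.52, 5.35, 4.37, 2.93 and 2.86 FPKM in Gr-1- libraries (difference -0.43 ± 0.24). Its level was higher in Gr-1- within each genotype, by 1.15-fold and 1.49-fold for null, 1.60-fold for CEBPaCre and 1.57-fold for CD19Cre, although the subsets overlapped. Abcg1, which exports cholesterol to mature lipoproteins, had the smallest SE of the 10 genes, at 14.9, 12.5, 13.9 and 13.1 FPKM in Gr-1+ libraries, against 14.9, 17.2, 17.5, 14.9 and 13.5 FPKM in Gr-1- libraries (difference -0.19 ± 0.16). Apoe, the lipoprotein ligand, was the most abundant of the 10 in every library, at 2752, 1219, 1346 and 1027 FPKM in Gr-1+ libraries, against 2234, 2253, 5636, 2545 and 1785 FPKM in Gr-1- libraries. It ranked 4 of 23234 symbols in the CD11cCre library, its highest place, and 54 in the CD19Cre Gr-1+ library, its lowest. The Apoe difference was -0.85 ± 0.38, and null Gr-1+ replicate 1 lay above 4 of the 5 Gr-1- libraries. Per length, the levels in Gr-1- ran from Apoe through Fabp4, Cd36 and Pparg (means 184, 128 and 113 FPKM, with overlapping libraries) and Nr1h3 (33.5 FPKM) to Abca1, while in Gr-1+ Trem2 (51.0 FPKM) came next after Apoe.

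The Abca1 promoter is shown because it is known to carry an LXR element. The entry (chr4:53159846-53160145, minus strand) held a DR4 match with 3 of 12 letters different, starting 67 bases before the annotated start, where 21.9% of all promoters held a match as close. Capitals mark that match.
Abca1 promoter: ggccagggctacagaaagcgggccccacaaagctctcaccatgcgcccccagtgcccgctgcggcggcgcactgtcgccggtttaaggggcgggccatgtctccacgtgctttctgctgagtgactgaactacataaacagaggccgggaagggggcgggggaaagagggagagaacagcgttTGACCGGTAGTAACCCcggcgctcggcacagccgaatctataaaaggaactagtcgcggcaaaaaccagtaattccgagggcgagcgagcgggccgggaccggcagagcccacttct
None of the promoters of the LXR-linked genes Nr1h3 (2 entries) and Apoe (3 entries) held a DR4 match closer than 4 letters, a distance that 76.9% of all promoters reach.

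Trem2 stood at 55.6, 48.1, 42.9 and 57.2 FPKM in Gr-1+ libraries, against 3.45, 3.29, 5.22, 10.1 and 4.34 FPKM in Gr-1- libraries. The difference was 3.13 ± 0.27, with the CD19Cre Gr-1- library the highest of its subset. Within a genotype Trem2 was 12.7-fold and 11.01-fold higher in Gr-1+ for null, 10.2-fold for CEBPaCre and 5.27-fold for CD19Cre. The summed classical markers were also highest among Gr-1- libraries in CD19Cre (1635 FPKM against 737 to 956), and their part in the Trem2 value was not tested.

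Of 8 wider lists of lipid genes (137 symbols), most tested members did not pass between the subsets. Each count stands beside the 8.84% of all genes called toward Gr-1+ and the 5.95% called toward Gr-1-, and the median log2 difference of all genes was 0.09. Of 12 tested genes of nuclear receptors and cofactors, limma called 0 (median -0.05). Of 13 PPAR target genes, 1 was higher in Gr-1+ and 1 in Gr-1- (median 0.28). Tgm2, the transglutaminase of macrophages, averaged 10.1 ± 4.55 FPKM in Gr-1+ (SD, n = 4) and 141 ± 29.8 FPKM in Gr-1- libraries (n = 5), 13.3-fold higher in Gr-1-. Acadm, of mitochondrial fatty acid oxidation, averaged 31.3 ± 5.16 and 16.2 ± 4.35 FPKM. Of 12 LXR target genes, 2 were called in each direction (median -0.09). Pltp, which transfers phospholipids between lipoproteins, averaged 61.9 ± 24.5 in Gr-1+ libraries, against 278 ± 145 FPKM in Gr-1- libraries, and Apoc2, the activator protein of Lpl, 453 ± 120 and 931 ± 274 FPKM. Apoc1, encoded beside Apoe and Apoc2, differed the other way, at 34.7 ± 16.8 and 9.98 ± 4.24 FPKM, as did the small GTPase gene Arl4c at 9.13 ± 2.43 and 4.85 ± 1.42 FPKM.

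Of 9 scavenger and lipoprotein receptors, only Msr1 passed (median 0.24). Msr1, the class A scavenger receptor, averaged 79.5 ± 47.2 FPKM in Gr-1+ (SD, n = 4) and 6.73 ± 2.45 FPKM in Gr-1- libraries (n = 5), the reverse of Cd36. Of 17 genes of fatty acid uptake and storage, only the transporter Slc27a1 passed (5.37 ± 1.08 against 2.85 ± 0.857 FPKM, median of the list -0.07). Of 18 cholesterol synthesis genes, Lss and Sqle were lower and Mvd was higher in Gr-1+ (median -0.31). These enzymes averaged 1.10 ± 0.182 against 2.92 ± 1.07, 3.62 ± 1.28 against 9.39 ± 3.63, and 18.8 ± 3.47 against 10.99 ± 2.49 FPKM. Of 13 cholesterol trafficking genes, 2 were higher in Gr-1+ (median 0.51), namely Npc2 (125 ± 35.8 against 35.7 ± 4.64 FPKM), which hands on lysosomal cholesterol, and Nceh1 (8.44 ± 1.18 against 3.85 ± 0.88 FPKM), a cholesteryl ester hydrolase. Of 18 genes of Trem2 signalling and lipid-associated macrophages, 3 were higher in Gr-1+ and 5 in Gr-1- (median -0.15). Clec7a, the beta-glucan receptor, averaged 141 ± 7.62 and 40.2 ± 11.6 FPKM, and Gpnmb 3.50 ± 2.68 and 0.255 ± 0.404 FPKM, while the tetraspanin gene Cd9 averaged 28.1 ± 8.99 and 506 ± 99.6 FPKM and Treml4 102 ± 40.98 and 651 ± 261 FPKM. Genes called from the list of Trem2 thus lay on both sides.

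**Figure D3:**
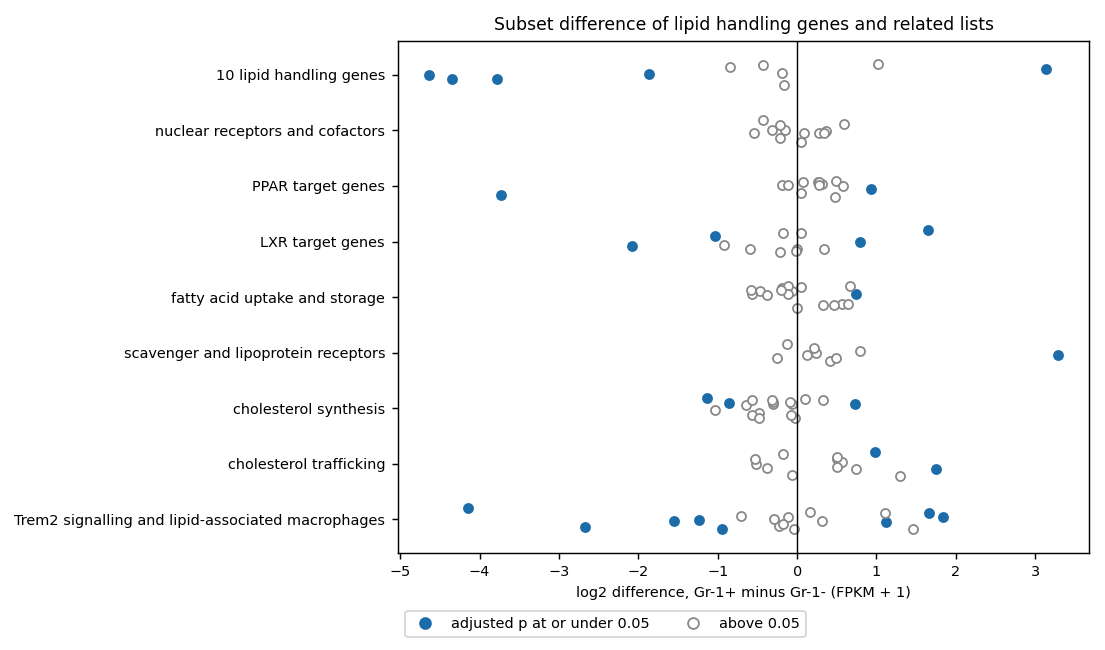
Log2 difference in FPKM + 1, Gr-1+ minus Gr-1-, for the tested genes of each list (1 point per gene). Filled points passed the limma threshold over all genes, and most points of the 8 wider lists are open and lie near 0, apart from single genes such as Tgm2, Msr1 and Cd9.

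Pparg and Trem2 were then compared with the other genes of at least 5 FPKM on average, leaving out predicted genes and small RNAs (6693 genes) by Pearson r of log2(FPKM + 1) over the 9 libraries, a description that the subset split dominates. The genes most like Pparg were Cyth3, Ets1, Smagp, S1pr5 and Pilrb1 (r from 0.997 to 0.994). Ets1 ran from 0.587 to 2.62 FPKM in Gr-1+ libraries, against 19.2 to 42.5 FPKM in Gr-1- libraries. Those most like Trem2 were Slpi, Ccr2, F13a1, Ptplad2 and Hopx (r from 0.991 to 0.984). Slpi ran from 170 to 250.5 FPKM in Gr-1+ libraries, against 14.0 to 52.5 FPKM in Gr-1- libraries.

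The second question was whether the lipid genes differ by the Fcgr2 genotype, a contrast that did not choose them. Libraries labelled deleted in myeloid cells (null and CEBPaCre, n = 5) were compared with those labelled intact (CD19Cre and floxed, n = 3) at equal subset. None of the 10 genes passed (limma adjusted p from 0.306 to 0.915), and 0 of 10429 genes did (0%), with 1470 genes at an unadjusted p under 0.05. At that unadjusted threshold stood 3 of the 10 genes, where 14.1% of all genes did. These were Abca1, Lpl and Fabp5, with differences, deleted minus intact, of 0.66 ± 0.18, 1.26 ± 0.41 and 1.04 ± 0.37 (SE). Pparg and Cd36 differed by 0.07 ± 0.29 and 0.12 ± 0.30. Itgam, which encodes the sorted marker CD11b, also separated the labels, at 136 to 186 FPKM in the 5 deleted libraries, against 61.7, 68.3 and 66.1 FPKM in the intact libraries (CD19Cre Gr-1+, CD19Cre Gr-1- and floxed). Erythroid markers summed to 501 to 3715 FPKM in deleted libraries, against 296 to 1289 FPKM in intact ones, with a median log2 difference of 1.45 over 5 tested genes. The part of either in the genotype values was not tested. The test of whether the genotype difference itself differed between subsets passed for none of the 10 genes (limma interaction adjusted p from 0.882 to 0.973), where 0.0863% of all genes passed. At an unadjusted p under 0.05 stood 1 of the 10, Fabp5 (interaction 1.74 ± 0.51), where 3.25% of all genes did. The intact Gr-1+ side of that value is 1 library, CD19Cre, at 4.26 FPKM. With libraries weighted by their fit, Fabp5 and Lpl passed the genotype contrast, where 6.45% of all genes did.

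**Figure D4:**
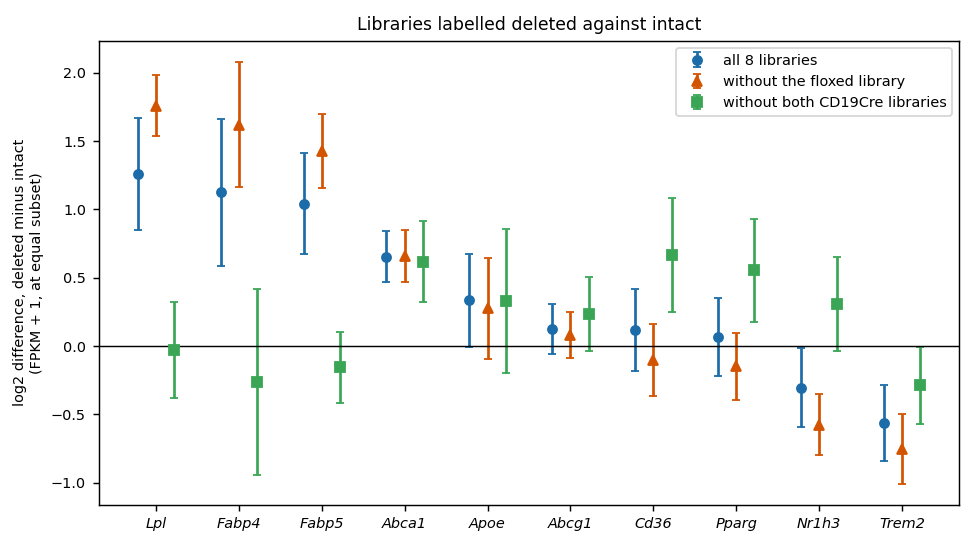
Log2 difference in FPKM + 1, deleted minus intact at equal subset, with its SE, for each gene in all 8 libraries, without the floxed library and without both CD19Cre libraries. Lpl, Fabp4 and Fabp5 lie above 0 with the CD19Cre libraries and near or below 0 without them, while Abca1 stays between 0.62 and 0.66.

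Abca1 and Trem2 separated the labels in both subsets. Every deleted library held more Abca1 than every intact one, at 3.81, 2.69 and 2.97 against 1.502 FPKM in Gr-1+ and 4.52 and 5.35 against 2.93 and 2.86 FPKM in Gr-1-, as 9.21% of all genes did. The Abca1 difference had a limma adjusted p of 0.306 and was 0.62 ± 0.30 without both CD19Cre libraries (limma adjusted p = 0.504). Every deleted library held less Trem2 than every intact one, at 55.6, 48.1 and 42.9 against 57.2 FPKM in Gr-1+ and 3.45 and 3.29 against 10.1 and 4.34 FPKM in Gr-1-, as 4.61% of all genes did. Its difference was -0.56 ± 0.28 (limma adjusted p = 0.38), and -0.29 ± 0.28 without both CD19Cre libraries.

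For Lpl, Fabp5 and Fabp4 the genotype pattern was that of the CD19Cre libraries. Lpl was lowest there in both subsets, at 7.17 FPKM against 23.3 to 37.0 in the other Gr-1+ libraries and at 3.52 FPKM against 8.73 to 15.4 in the other Gr-1- libraries. Fabp5 was likewise lowest, at 4.26 against 19.6 to 21.8 FPKM and 10.9 against 12.4 to 21.3 FPKM, and Fabp4 at 1.48 against 4.19 to 19.75 FPKM and 90.2 against 171 to 247 FPKM. The CD19Cre library was lowest in both subsets for 3 of the 10 genes, where it was for 13.1% of all genes. It was highest in both for Nr1h3 and Trem2, where it was for 31% of all genes, so these libraries were extreme for a large share of the transcriptome. Nr1h3 stood at 55.0 FPKM there against 23.3 to 32.6 FPKM in the other Gr-1- libraries, but at 10.2 against a highest of 9.98 FPKM in Gr-1+. The CEBPaCre library was lowest in both subsets for 1 of the 10 genes, Trem2, where it was for 1.03% of all genes.

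**Figure D5:**
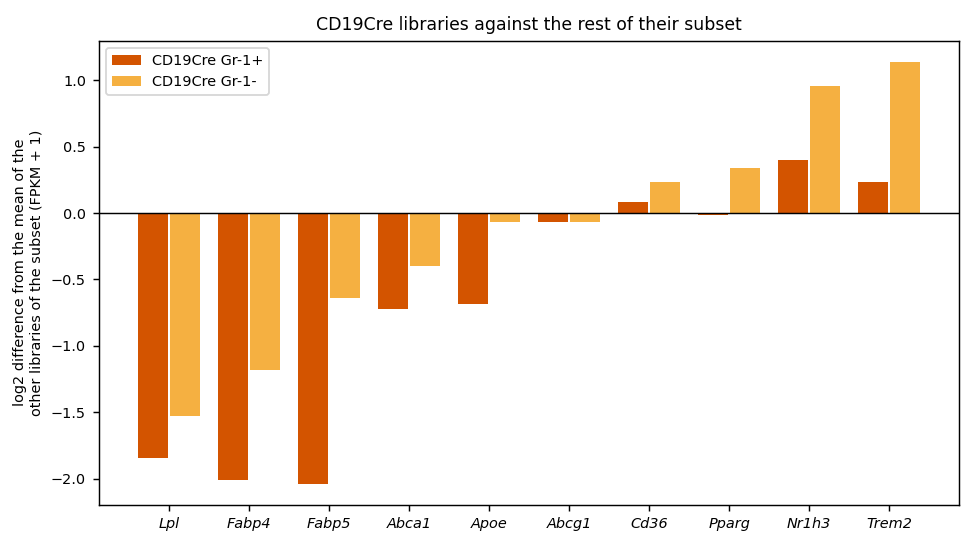
Log2 difference in FPKM + 1 between the CD19Cre library and the mean of the other libraries of its subset, for each gene, with 1 library per bar and no replicate. Lpl, Fabp4 and Fabp5 lie lowest in both subsets, and Pparg and Cd36 lie within 0.35 of 0.

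Without the floxed library the genotype contrast is null and CEBPaCre against CD19Cre alone, and 24.5% of all genes then passed. Lpl (difference 1.76 ± 0.22, limma adjusted p = 0.0086), Fabp5 (1.43 ± 0.27, 0.0116), Fabp4 (1.62 ± 0.46, 0.0362) and Abca1 (0.66 ± 0.19, 0.0377) were among them. Without both CD19Cre libraries the differences of Lpl, Fabp5 and Fabp4 were -0.03 ± 0.35, -0.16 ± 0.26 and -0.26 ± 0.68, so the floxed Gr-1- library did not share the low values. The low share of ribosomal protein RNA in the CD19Cre libraries moved with these values, and its part was not tested. Their relative depths were 1.02 (Gr-1+) and 2.66 (Gr-1-) of the floxed library. With the CD19Cre libraries left out of the subset comparison, Lpl was 2.26-fold higher in Gr-1+, at 23.3 to 37.0 against 8.73 to 15.4 FPKM with no overlap, given as a description like the other subset values. With genotype as a block the Gr-1+ minus Gr-1- differences of Lpl and Abca1 were 1.00 ± 0.20 and -0.55 ± 0.16.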

How the data were processed

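RNA came from about 100000 sorted cells per library by Trizol, with SMART-Seq v4 cDNA, per the labels' protocols. The deposited FPKM values were made by the authors for each library. TopHat2 2.0.8, Cufflinks 2.1.1 and mm9 are named in the submitters' processing notes, and the annotation and settings are not given in the sources used here. No file gives counts, so depth is unknown and no counting interval is given. The relative depth is the commonest ratio of values under 0.5 FPKM between a library and the floxed one. Every value column was used, so 0 were left out.

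Differences were fitted with limma 3.58.1 (R 4.3.3, lmFit and eBayes with a trend) on log2(FPKM + 1), which understates changes of low genes. Genes entered with a mean of at least 1 FPKM and above 0 in at least 2 fitted libraries, with Benjamini-Hochberg adjustment over all of them and a threshold of 0.05. The subset fit had no covariate, and the genotype fit had the subset and left out CD11cCre, whose driver acts in part of the monocytes. The script was tested on simulated data. The genes and lists were chosen with earlier results of these data known. All 10 genes are named, with up to 4 called genes per wider list by smallest p and 5 per likeness search. Nr1h3 and Cd36 are tagged as overlapping other loci in GENCODE M21, and reads there cannot be told apart without strand.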

Additional observations from a re-analysis of the deposited data

Results flagged for a closer look

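Of 20 groups of values (10 genes in 2 subsets), 3 held a library whose gap to its neighbour was large against the range of the group. The limit was set for about 1 in 20 by chance, and the share of all genes flagged in this way was not counted. The CD19Cre libraries were extreme for a large share of all genes, so nothing about lipid genes is read from these flags. Fabp5 in Gr-1+ was low in the CD19Cre library, at 4.26 FPKM against 19.6 to 21.8 FPKM in the other 3. Trem2 in Gr-1- was high in the CD19Cre library, at 10.1 FPKM against 3.29 to 5.22 FPKM in the other 4. Its gap over the range, 0.714, lay just above the limit of 0.71. Apoe in Gr-1- was high in the CD11cCre library, at 5636 FPKM against 1785 to 2545 FPKM.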

How the results depend on the processing

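Of 159 alternative values of the 10 subset differences, all moved by less than 1 SD of the libraries. Fabp5, at -0.16, still changed sign. It became 0.17 with library weights, 0.22 without both CD19Cre libraries and 0.35 without the CD19Cre Gr-1+ library. The number of genes called between subsets was 1544, and 2376 with library weights, 2712 with genotype as a block, and 1128 to 1578 without any 1 library. Of the 159 alternative genotype differences, 11 changed sign and 6 passed where the main value did not. The 0 genes called by genotype became 673 with library weights, 5 without both CD19Cre libraries, 3 without the CEBPaCre libraries, and 0 to 2551 without any 1 library, the highest without floxed. With the CD11cCre library counted as deleted, 0 of 10436 genes were called. With library weights Fabp5 (1.42) and Lpl (1.60) passed (limma adjusted p = 0.0421 and 0.0418), and Pparg and Cd36 became -0.0147 and -0.0148. Without both CD19Cre libraries Fabp4, Fabp5 and Lpl became -0.262, -0.156 and -0.0261, and Nr1h3 0.30. Pparg was -0.0274 without the CEBPaCre libraries and ran from -0.15 to 0.27 without any 1 library, as Cd36 did from -0.10 to 0.27. The interaction of Pparg and Abcg1 was 0.0621 and 0.0571 after median ratio scaling. The cause of these changes was not tested. No paired analysis was possible by replicate number, because the groups share fewer than 2 numbers, and the genotype block above pairs the subsets by genotype instead.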

Other observations

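The CD11cCre Gr-1- library was left out of the main genotype comparison. It held the highest Pparg, Cd36, Abcg1 and Apoe of all libraries, at 150, 153, 17.5 and 5636 FPKM. Among the other Gr-1- libraries the highest values of these genes were 132, 143, 17.2 and 2545 FPKM. The share of all genes that were highest in the CD11cCre library was not counted, so nothing about lipid genes is read from these places. Nr1h3 was lowest of the Gr-1- libraries there, at 23.3 FPKM against 25.6 to 55.0 FPKM. NK cell markers summed to 481 FPKM in this library, against 24.9 to 194 FPKM in the other Gr-1- libraries, and Itgax stood at 301 FPKM against 33.8 to 66.0 FPKM. There is 1 such library, so these values have no replicate check.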
